A study of Mus musculus with 5 samples.

Results

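Skeletal muscle genes outside the slow-fibre programme were followed in the esophagus of mice that carry an inducible interleukin-13 (IL-13) transgene. The genes were taken from a list of 46 fast-fibre and general striated muscle genes. The rule names genes and uses no measured value, but the list was drawn up with earlier results of these data known. Of the 46 genes 45 were found as the only symbol of at least 1 probe set, among 18193 genes measured. Xirp2, a Xin actin-binding repeat protein, is not analysed here. The 45 genes had 72 of the array's 45101 probe sets, 32 of them 1 probe set each and 13 several, up to 6. RNA came from esophagus of CC10-rtta/teton-IL-13 mice on the FVB/N background aged 3 to 4 months. The Dox group (3 arrays) received a diet with doxycycline and the NoDox group (2 arrays) a regular diet. Both groups carried both transgenes. The CC10 promoter is active in club cells of the airway, where it drives the transactivator that doxycycline switches on. Animals without the transgenes on a doxycycline diet were not analysed here, so the effects of IL-13 and of the diet cannot be told apart. Whether the arrays came from separate animals is not given in the labels, and the p-values measure only the spread between these arrays.

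Values are linear ratios that the authors made from Affymetrix Mouse Genome 430 2.0 array signals. A ratio of 1 is the mean of the 2 NoDox arrays, so the NoDox ratios of a probe set average 1 by construction. They say nothing of the level of a gene relative to another gene. A signal level could be worked back from the ratios for most probe sets, up to a limit of 50000 steps of the stored signal. No level was found within that limit for 38 of the 45 genes (84.4%), against 15.5% of all genes, and the search returns no level for signals brighter than its limit.

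The mouse esophagus is wrapped in striated muscle along most of its length, under a squamous epithelium. Striated fibres are called slow or fast by the myosin heavy chain they carry. Myh7 encodes the slow one, while Myh2, Myh1 and Myh4 encode the fast chains of type IIa, IIx and IIb fibres. Fast fibres have their own troponins, myosin light chains and calcium pump, and they hold the calcium buffer parvalbumin. Actin, titin, nebulin and the creatine kinases are shared by fibres of both kinds. Of the genes described here, Mybpc1 is named for the slow form of myosin-binding protein C and Ckmt2 is richest in oxidative fibres, so the list is not made of fast-fibre genes alone.

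Of the 45 genes, Myh4, Pvalb and Ckmt2 fell in Dox esophagus and 0 rose, at an adjusted p under 0.05 (limma, Benjamini-Hochberg adjustment over all genes). That is 6.67% of the genes, against 1.17% of all genes lower and 1.37% higher. The 250 bases before the start of these 3 genes are shown first, with those of Myh1 and Myh2, neighbours of Myh4 on chromosome 11 that did not pass the threshold. The sequences are from RefSeq on GRCm38.p6, written 5′ to 3′ on the strand of the gene, and they end at the base before the start. Capitals mark matches on either strand to CANNTG, the E-box bound by MyoD family factors, to the MEF2 motif, to the CArG box of serum response factor and to TATAAA.
Myh4, chr11:67237562-67237811, plus strand: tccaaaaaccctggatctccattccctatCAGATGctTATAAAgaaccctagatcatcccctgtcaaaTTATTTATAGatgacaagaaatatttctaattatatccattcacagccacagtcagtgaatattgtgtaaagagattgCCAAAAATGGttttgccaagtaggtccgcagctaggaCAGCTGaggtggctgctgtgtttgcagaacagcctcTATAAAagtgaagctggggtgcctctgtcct
Myh1, chr11:67199852-67200101, plus strand: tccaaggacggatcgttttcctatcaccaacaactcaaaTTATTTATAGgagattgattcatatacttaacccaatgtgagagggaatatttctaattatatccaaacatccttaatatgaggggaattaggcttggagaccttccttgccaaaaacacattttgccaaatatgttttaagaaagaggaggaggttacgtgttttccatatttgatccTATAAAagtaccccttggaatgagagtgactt
Myh2, chr11:67170777-67171026, plus strand: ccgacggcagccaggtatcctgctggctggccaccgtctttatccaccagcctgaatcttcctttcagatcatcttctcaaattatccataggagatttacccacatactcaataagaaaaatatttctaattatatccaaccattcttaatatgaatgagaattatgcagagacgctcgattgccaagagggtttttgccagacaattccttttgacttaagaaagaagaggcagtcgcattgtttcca
Pvalb, chr15:78206401-78206650, minus strand, the first of 2 starts listed: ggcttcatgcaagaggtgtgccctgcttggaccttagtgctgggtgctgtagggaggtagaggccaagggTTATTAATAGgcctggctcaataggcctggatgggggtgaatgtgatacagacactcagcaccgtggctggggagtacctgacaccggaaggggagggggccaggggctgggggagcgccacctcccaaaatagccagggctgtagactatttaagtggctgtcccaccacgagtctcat
Ckmt2, chr13:91876886-91877135, minus strand: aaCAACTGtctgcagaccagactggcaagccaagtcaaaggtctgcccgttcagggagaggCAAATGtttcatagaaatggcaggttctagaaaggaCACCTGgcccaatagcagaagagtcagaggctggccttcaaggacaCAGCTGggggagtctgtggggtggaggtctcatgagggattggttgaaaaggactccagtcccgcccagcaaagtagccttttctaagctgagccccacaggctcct

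The Myh4 window held 2 E-boxes, 1 MEF2 match, 1 CArG box and 3 matches to TATAAA, of which 1 lies inside the MEF2 match on the other strand. The last TATAAA ran from 31 to 26 bases before the start. The Myh1 window held 1 MEF2 match, with the same 10 letters as that of Myh4, and 2 matches to TATAAA, of which 1 again lies inside it. The Myh2 window held none of these letters, the Pvalb window 1 MEF2 match and the Ckmt2 window 4 E-boxes. Letters past the listed start of each gene were not searched, so a missing match depends on where that start is listed. Windows of this length were found for 30 of the 45 genes, 34 windows in all. Of these 79.4% held an E-box, 17.6% a MEF2 match, 14.7% a CArG box and 17.6% TATAAA. Over all 32851 RefSeq windows the shares were 66.2%, 2.92%, 1.47% and 12.4% in the same order. These matches are letters in a window and not measured binding.

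The fast and developmental myosin heavy chains differed most among themselves. Myh4, the type IIb heavy chain, had ratios of 0.171, 0.119 and 0.0822 in the 3 Dox arrays, against 1.14 and 0.864 in the 2 NoDox arrays. Every Dox array was far below both NoDox arrays, and Myh4 fell by 3.06 ± 0.28 on the log2 scale (SE, 8.34-fold lower, limma adjusted p = 0.000823). A second Myh4 probe set had 0.212, 0.269 and 0.148 in Dox arrays, against 1.22 and 0.782 in NoDox arrays. It fell by 2.26 ± 0.32 in the fit over every probe set (adjusted p = 0.0147), so both probe sets of the gene passed. Bulk tissue was measured, and fewer fibres of a type cannot be told apart from less RNA per fibre.

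Myh1, the type IIx heavy chain, lies next to Myh4 in RefSeq's gene order on chromosome 11 and did not pass the threshold. Its ratios were 1.03, 0.854 and 0.904 in Dox arrays, against 0.976 and 1.02 in NoDox arrays, and the groups overlapped. The log2 difference was -0.11 ± 0.14 (SE, 95% interval -0.42 to 0.20, limma adjusted p = 0.736). This interval does not reach the fall of Myh4. A second Myh1 probe set had a log2 difference of -0.13, and the last, with a recovered NoDox level of 414 steps, one of 0.85. This last one ranged over the Dox arrays as 1.48, 2.45 and 0.624, against 1.68 and 0.317 in NoDox arrays, and the groups overlapped. Setting Myh1 from this probe set, or from the mean of the 3, turned its sign. Whether the Myh1 probes also bind RNA of the neighbouring heavy chains was not tested.

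Myh2, the type IIa heavy chain, lies before Myh1 in that order. It had ratios of 0.470, 0.0534 and 0.338 in Dox arrays, against 0.997 and 1.004 in NoDox arrays. All Dox arrays were lower, but they spread over almost an order of magnitude, with Dox replicate 2 lowest. The log2 difference was -2.29 ± 0.74 (95% interval -3.97 to -0.62) and it did not pass the threshold (limma adjusted p = 0.156). Without Dox replicate 2 the difference was smaller, -1.33, and passed (adjusted p = 0.00651). Myh3, the embryonic heavy chain, had 0.480, 0.265 and 0.683 in Dox arrays, against 0.805 and 1.20 in NoDox arrays (log2 difference -1.15 ± 0.39, adjusted p = 0.178). Here too the groups did not overlap and Dox replicate 2 was lowest. Myh8, the perinatal heavy chain that follows Myh4 on the chromosome, had a log2 difference of -0.21 ± 0.16 (adjusted p = 0.556). The order along the chromosome, Myh3, Myh2, Myh1, Myh4, Myh8, thus did not run with the size of the difference.

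**Figure D1:**
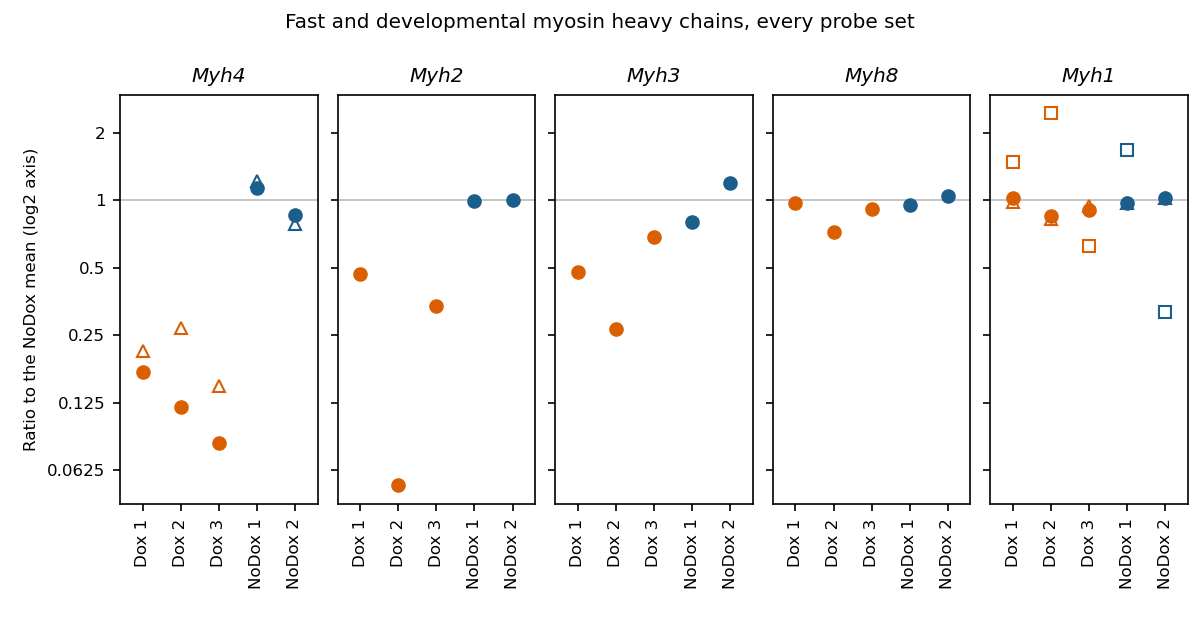
Ratio to the NoDox mean on a log2 axis in the 3 Dox arrays (orange) and the 2 NoDox arrays (blue) for the 5 heavy chains; filled circles are the probe set that stands for the gene, open symbols its other probe sets. Myh4 lies at 0.269 or below in every Dox array with both probe sets, Myh2 spreads between 0.0534 and 0.470, and the 2 brighter Myh1 probe sets stay near 1.

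Among the light chains and other proteins of the thick filament, 0 of 5 genes passed, and their median log2 difference was -0.07. Myl1, the fast essential light chain, had 0.960, 0.939 and 0.950 in Dox arrays, against 0.891 and 1.11 in NoDox arrays (log2 difference -0.066 ± 0.140, 95% interval -0.38 to 0.25). Its Dox arrays lay between the NoDox arrays. Mylpf, the fast regulatory light chain, had a difference of -0.28, and its groups did not overlap. Mybpc2, the fast form of myosin-binding protein C, had 1.10, 0.767 and 1.14 in Dox arrays, against 0.969 and 1.03 in NoDox arrays (log2 difference -0.019 ± 0.184). It was above both NoDox arrays in 2 Dox arrays and below both in Dox replicate 2. Mybpc1, its slow-type paralog, had 0.759, 0.375 and 0.640 in Dox arrays, against 1.003 and 0.997 in NoDox arrays. All Dox arrays were lower, with a log2 difference of -0.82 ± 0.26 that did not pass (limma adjusted p = 0.150). The other Mybpc1 probe sets, also without a recovered level, had -1.11 ± 0.22 and -0.70 ± 0.23, with every Dox array below both NoDox arrays and adjusted p = 0.0527 and 0.214 in the fit over every probe set. Mylk2, the kinase of skeletal myosin light chains, was the 1 gene of the 45 with a difference above 0, at 0.28 ± 0.18 (adjusted p = 0.478).

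Of the thin filament genes 0 of 4 passed the threshold, with a median of -0.15. Acta1, skeletal alpha-actin, had 0.948, 0.964 and 0.906 in Dox arrays, against 0.880 and 1.12 in NoDox arrays. Its Dox arrays all lay within the NoDox range, and the 95% interval of the log2 difference was -0.41 to 0.25 around -0.080. The fast troponins that hold and regulate tropomyosin, Tnnc2, Tnni2 and Tnnt3, had differences of -0.13, -0.16 and -0.24, and of the 4 genes only Tnnt3 had every Dox array below both NoDox arrays, which held for 21.8% of all genes. Probe sets of Tnni2, the inhibitory subunit, disagreed, with log2 differences of -0.81, -0.16 and 0.41.

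Of the 12 genes of the Z-disc, the M-band and the giant filaments 0 passed, and all 12 had a difference below 0 (median -0.44). In 9 of them (75%) every Dox array was below both NoDox arrays, against 21.8% of all genes. Actn2, the alpha-actinin of every fibre, had 0.746, 0.502 and 0.724 in Dox arrays, against 0.963 and 1.04 in NoDox arrays (log2 difference -0.63 ± 0.19, limma adjusted p = 0.126). Tcap, or telethonin, which caps titin at the Z-disc, had 0.682, 0.741 and 0.686 in Dox arrays, against 0.876 and 1.12 in NoDox arrays (-0.50 ± 0.15, adjusted p = 0.127). Its 3 Dox arrays lay close together, and it was the 1 gene of the 45 in which Dox replicate 1 was lowest. Myot, which cross-links actin at the Z-disc, had a log2 difference of -0.69, and Neb, the giant protein nebulin that runs along the thin filament, one of -0.57. Actn3, the alpha-actinin of fast fibres, had -0.42, and the M-band proteins Myom1 and Myom2 had -0.46 and -0.24. Nrap and Smpx had -0.53 and -0.36, and the Z-disc protein Ldb3 and the Xin protein Xirp1 had -0.25 and -0.26. Ttn, the titin spring, had a difference of -0.37 with its representative probe set and a range of -0.80 to 0.36 over 6 probe sets.

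Among the 8 genes of calcium release, uptake and buffering Pvalb fell, and the median was -0.39. Pvalb, which buffers calcium in fast fibres and speeds their relaxation, had 0.385, 0.307 and 0.353 in Dox arrays, against 1.04 and 0.957 in NoDox arrays. The Dox arrays were close to each other and all below both NoDox arrays. It fell by 1.53 ± 0.15 on the log2 scale (2.88-fold lower, limma adjusted p = 0.00112). Casq1, the calcium store protein of fast fibres, had 0.741, 0.577 and 0.771 in Dox arrays, against 1.02 and 0.978 in NoDox arrays, and did not pass (-0.53 ± 0.16, adjusted p = 0.125). Trdn, or triadin, which ties calsequestrin to the release channel, had 0.864, 0.276 and 0.567 in Dox arrays, against 0.965 and 1.04 in NoDox arrays (-0.96 ± 0.38, adjusted p = 0.237). All 6 Trdn probe sets had a difference below 0, between -1.41 and -0.55, and 0 of them passed. The groups overlapped in the probe set with -0.55 and in another with -1.21 ± 0.955 in the fit over every probe set.

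The release channel Ryr1 had a log2 difference of -0.43, and its voltage sensor Cacna1s one of -0.34. Cacng1, the gamma subunit of that sensor, had 1.03, 0.864 and 1.09 in Dox arrays, against 1.02 and 0.983 in NoDox arrays. Its groups overlapped, with a difference of -0.012 ± 0.145, the smallest of the 45. The fast-fibre calcium pump Atp2a1 had -0.36 and its inhibitor Sln, or sarcolipin, -0.25. In all 8 genes Dox replicate 2 was the lowest Dox array, against 39.0% of all genes.

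Of 7 genes of energy metabolism and oxygen storage Ckmt2 fell, and the median was -0.32. Ckmt2, the creatine kinase of muscle mitochondria, had 0.355, 0.212 and 0.302 in Dox arrays, against 1.02 and 0.980 in NoDox arrays. The groups were far apart, and it fell by 1.82 ± 0.21 on the log2 scale (3.53-fold lower, limma adjusted p = 0.00295). Ckm, the cytosolic creatine kinase of muscle, had a difference of -0.15 (95% interval -0.46 to 0.16), which does not reach that of Ckmt2. A second Ckm probe set had 0.683, 0.649 and 0.704 in Dox arrays, against 1.01 and 0.994 in NoDox arrays, without overlap. Its difference was -0.56 ± 0.14 and did not pass in the fit over every probe set (adjusted p = 0.122), and the mean of both probe sets gave -0.35. Mb, or myoglobin, had -0.13, and -0.50 as the mean of its 2 probe sets. Its second probe set, with a recovered NoDox level of 489.5 steps, had -0.87 ± 1.04 in the fit over every probe set. The groups of that probe set overlapped. The glycolytic enzymes Pgam2 and Eno3 had -0.55 and -0.32, the AMP deaminase Ampd1 -0.52 and the glycogen phosphorylase Pygm -0.18. Pgam2, Ampd1 and Eno3 did not pass and had every Dox array below both NoDox arrays, which held for 21.8% of all genes.

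Of the myogenic regulators and the acetylcholine receptor 0 of 4 passed (median -0.36). The transcription factors Myog, Myf6 and Myod1 had log2 differences of -0.54, -0.38 and -0.35, each with all Dox arrays below both NoDox arrays, which held for 21.8% of all genes. As the mean of its 2 probe sets Myod1 had -0.71. Its second probe set, with a recovered NoDox level of 1075 steps, had -1.07 ± 0.89 in the fit over every probe set. Chrna1, the receptor subunit of the motor endplate, had -0.32, and its groups overlapped.

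Over the 45 genes the median log2 difference was -0.36, against -0.08 over all genes, and the values ran from -3.06 for Myh4 to 0.28 for Mylk2. A difference below 0 was found in 44 of 45 genes (97.8%), against 57.5% of all genes, and in 40 of 45 when each array was centred on its own median. With quantile-normalized signals it was 36 of 45, and Acta1, Cacng1, Ckm, Mb, Mybpc2, Myl1, Tnnc2 and Tnni2 turned. Every Dox array was below both NoDox arrays in 28 genes (62.2%), against 21.8% of all genes. At an unadjusted p under 0.05 (limma) 19 genes were lower (42.2%), against 10.4% of all genes. By size, Myh4, Myh2, Ckmt2, Pvalb and Myh3 were at least 2-fold lower, 5 of the 45 against 5.41% of all genes. At 1.5-fold it was 9 of the 45, against 12.7% of all genes. The 42 genes that did not pass had a median of -0.35. Over all 72 probe sets 4 were lower in the fit over every probe set (5.56%), against 0.504% of all probe sets, and 65 had a difference below 0 (90.3%), against 56.4%. Probe sets of Tnni2, Ttn, Myh1, Sln, Myom2 and Ryr1 differed in sign.

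**Figure D2:**
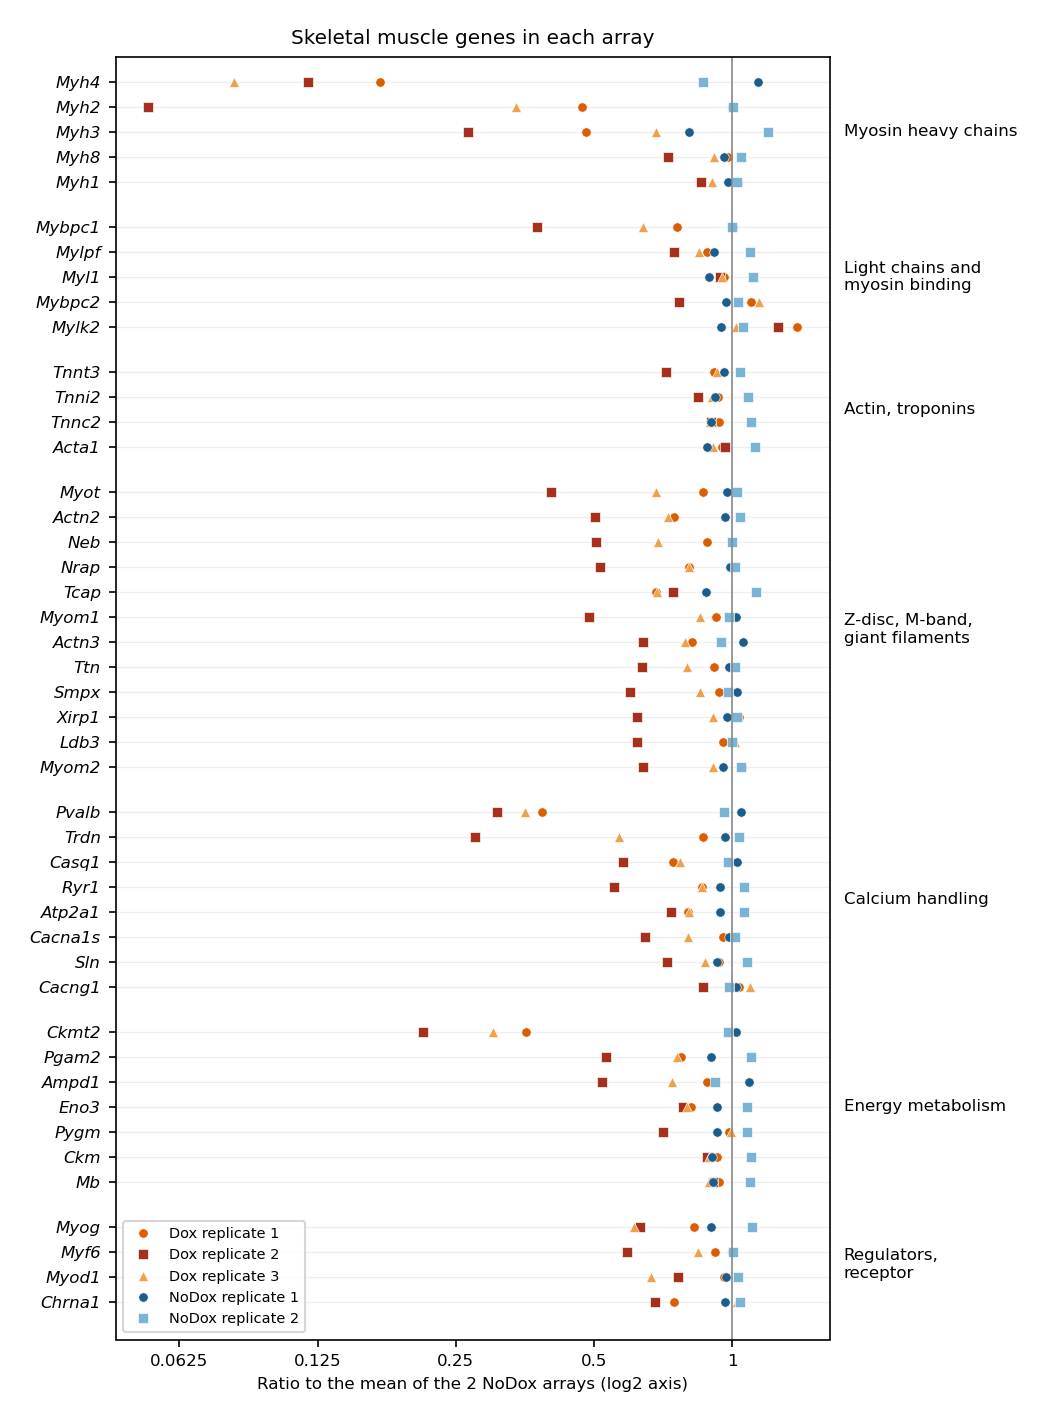
Ratio to the NoDox mean, on a log2 axis, of the 45 genes in each of the 3 Dox arrays and the 2 NoDox arrays, with genes grouped by role. Myh4, Pvalb and Ckmt2 are low in all Dox arrays, while many other genes are lowest in Dox replicate 2.

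**Figure D3:**
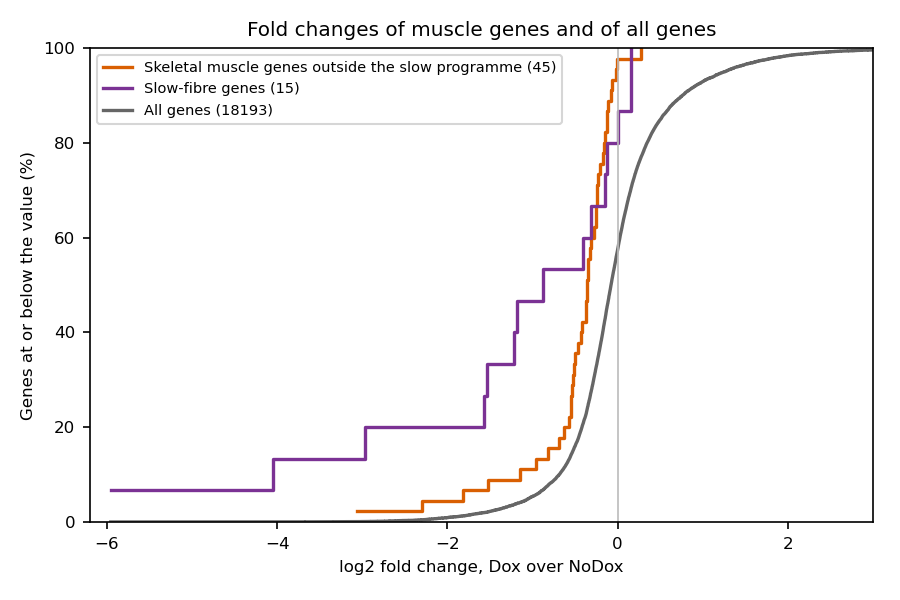
Share of genes (%) at or below each log2 difference, Dox minus NoDox, for the 45 genes (orange), the 15 slow-fibre genes (purple) and all 18193 genes (grey), with the axis ending where few genes remain. Of the 45 genes 97.8% lie below 0, against 57.5% of all genes, and the slow-fibre curve reaches further left.

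The 3 Dox arrays were not equally low. The median ratio of the 45 genes was 0.911, 0.639 and 0.842 in Dox replicates 1, 2 and 3, against 0.965 and 1.03 in the NoDox arrays. Over all genes the medians were 0.961, 0.944 and 0.932 in Dox arrays, against 0.996 and 1.004 in NoDox arrays. Dox replicate 2 was the lowest Dox array in 37 of the 45 genes (82.2%), against 39.0% of all genes. It was under a ratio of 0.75 in 33 of the 45, against 9 in Dox replicate 1 and 14 in Dox replicate 3. Without Dox replicate 2 the median log2 difference of the 45 genes was -0.21, while Myh4, Pvalb and Ckmt2 passed as before and Myh2 passed in addition.

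Slow-fibre genes, a list of 15, are the group closest to these. Of the 45 genes 3 fell, with a median log2 difference of -0.36, against 5 of the 15 slow-fibre genes (33.3%) and a median of -0.88. The slow regulatory light chain Myl2, the slow heavy chain Myh7 and the slow and cardiac troponin C Tnnc1 fell, with log2 differences of -5.96, -4.04 and -2.97 (limma adjusted p = 6.1e-05, 8.1e-05 and 0.000208). Hspb7, a small heat shock protein of muscle, fell by 0.88, and Myoz2, a calcineurin-binding Z-disc protein named after its value was seen, by 1.22. Of the 10 slow-fibre genes that did not pass, the slow troponins Tnnt1 and Tnni1 had -1.57 and -1.53 (adjusted p = 0.0718 and 0.0654) and Ankrd2 had -1.18, each with every Dox array below both NoDox arrays. That held for 10 of the 15 slow-fibre genes (66.7%), against 21.8% of all genes. Casq2 and Csrp3 had -0.41 and -0.32, and Myl3, Fhl1, Tpm3, Myh7b and Atp2a2 had differences between -0.15 and 0.16. The median ratio of the slow-fibre list was 0.628, 0.506 and 0.578 in Dox arrays, against 0.992 and 1.01 in NoDox arrays. The difference between the lists was not tested.

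Other parts of the muscle fibre were read from further lists, and their counts at an unadjusted p under 0.05 stand against 10.4% of all genes lower. Of 28 further genes listed for sarcomere structure 0 passed in either direction (14 lower at an unadjusted limma p under 0.05, 50%), with a median of -0.41. Dox replicate 2 was the lowest Dox array in 27 of them (96.4%), against 39.0% of all genes. This list is not made of sarcomere genes alone. Fitm1, a lipid droplet protein of muscle, had -0.53 (limma adjusted p = 0.0797) and Actn1, the non-muscle alpha-actinin, 0.60 (adjusted p = 0.113). Of 17 further genes of excitation-contraction coupling 0 passed (5 lower unadjusted, 29.4%, median -0.38), with Jph2, which holds the junctional membranes together, at -0.48 and the calcium channel subunit Cacna2d1 at -0.69. Of 16 genes of the dystrophin complex 0 passed (7 lower unadjusted, 43.8%, median -0.40), with the syntrophin Sntb1 at -0.86 and the sarcoglycan Sgca at -0.43. Of 16 glycolysis and glycogen genes Fbp2, the muscle fructose bisphosphatase, fell by 1.01 ± 0.16 (2.02-fold lower, limma adjusted p = 0.0147), and the median was -0.30. Its ratios were 0.427, 0.587 and 0.484 in Dox arrays, against 1.04 and 0.964 in NoDox arrays. Of 26 genes of myogenic regulation 0 passed (6 lower unadjusted, 23.1%, median -0.29), with the nuclear receptor Esrrg at -1.12 and the fibre-type regulator Sox6 at -0.45. Of 23 genes of denervation and regeneration 0 passed (6 lower unadjusted, 26.1%, median -0.31), with Ncam1 at -0.66 and Cdkn1a at -0.39.

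Markers of neighbouring tissue were set beside these values, as medians of ratios, since levels cannot be summed over probe sets. Of 14 smooth muscle markers Itga8 rose by 0.83 on the log2 scale (limma adjusted p = 0.0354) and 0 fell. The list includes Des, Hspb6 and Synpo2, so it is not made of genes of smooth muscle alone. At an unadjusted p under 0.05, 6 of the 14 were lower (42.9%), and every Dox array was below both NoDox arrays in 9 of them (64.3%), with a median log2 difference of -0.35. The same values over the 45 genes were 42.2%, 62.2% and -0.36, and over all genes 10.4%, 21.8% and -0.08. The median ratio of the smooth muscle markers was 0.713, 0.736 and 0.794 in Dox arrays, against 0.943 and 1.06 in NoDox arrays. Dox replicate 2 was the lowest Dox array in 4 of the 14 (28.6%), against 39.0% of all genes. Of 11 squamous epithelium markers 0 passed (3 lower unadjusted, 27.3%), with median ratios of 0.986, 1.01 and 0.798 in Dox arrays, against 0.952 and 1.05 in NoDox arrays. Krt14 had 0.48 and Trp63 -0.34. Of 14 heart markers 0 passed (3 lower unadjusted, 21.4%), with medians of 0.804, 0.746 and 0.997 in Dox arrays, against 0.964 and 1.04 in NoDox arrays. Myl7 had -0.94 and Nkx2-5 1.31. Of 11 fibroblast and tendon markers 0 passed (1 lower unadjusted, 9.09%, near the 10.4% of all genes, median difference -0.16), with Col1a1 at -0.51 and Lum at -0.62. The part of tissue makeup in the values of the 45 genes was not tested.

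**Figure D4:**
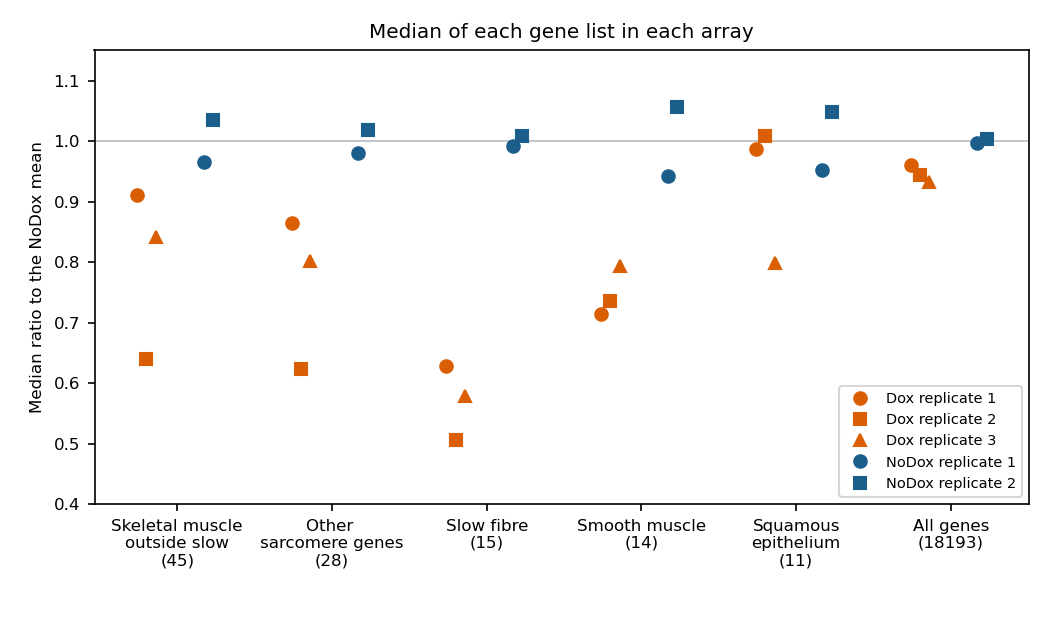
Median ratio to the NoDox mean of 5 gene lists and of all genes in each array, with Dox arrays in orange to the left and NoDox arrays in blue to the right of each list. Dox replicate 2 stands apart at 0.639 for the 45 genes, while the 3 Dox arrays of the smooth muscle list lie between 0.713 and 0.794.

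The calls rest on how the spread of a gene was modelled. No level was recovered for Myh4, Pvalb and Ckmt2 with the probe sets that stand for them. In the intensity trend they stood at a lower bound scaled by their own ratios, Dox arrays included. Without an intensity trend in limma 0 of the 45 genes passed, with adjusted p-values of 0.117 for Myh4, 0.1003 for Pvalb and 0.150 for Ckmt2. Without the trend 6 were lower and 0 higher at an unadjusted limma p under 0.05, against 2420 of 18193 genes in either direction. With quantile-normalized log2 ratios Myh4 alone passed, and with either NoDox array left out Ckmt2 did not pass.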

How the data were processed

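RNA of esophagus from 3 Dox and 2 NoDox arrays was measured, grouped by the diet and title in the labels. Per the labels' protocols, Microarray Suite 5.0 gave the signals, and GeneSpring 7.3.1 normalized each sample to unstimulated controls. The deposited unit is a linear ratio made by the authors. In 45099 of 45101 probe sets both NoDox values add up to 2 (tolerance 0.0001), so a common NoDox mean was the divisor. The number of arrays limits the precision.

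Signal levels were worked back from the ratios by a search for whole numbers of steps up to 50000 (relative tolerance 3e-07). A level was found for 40710 probe sets (90.3%), and for 25 of 4000 with shuffled ratios. Of 4000 simulated probe sets 3932 gave a level, and 96.34% of these were right. The others were given a lower bound, scaled by the probe set's own ratios. The choice between several bright probe sets of a gene thus follows the ratios of all arrays, Dox arrays included, and not brightness (Myh1, Trdn, Ttn, Ldb3, Myom2, Mybpc1, Tnni2). A single gene symbol was annotated for 34945 probe sets, more than 1 for 932 and none for 9160, beside 64 controls.

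Log2 ratios were fitted with limma 3.58.1 in R 4.3.3 (lmFit, eBayes with a trend on log2 level, two-sided, Benjamini-Hochberg adjustment over 18193 genes, threshold 0.05). Each gene was represented by its probe set of highest level or scaled lower bound, with no filter or offset. The trend also used the scaled lower bound where no level was found. A second fit took 45037 probe sets. The residual degrees of freedom were 3 and the prior ones 6.003. Values per array were not tested, because the smallest exact permutation p of such groups is 0.1. On simulated data with 200 of 18193 genes changed 2-fold, 4-fold and 8-fold, 99, 145 and 167 were called, with 13, 18 and 11 false calls, and 0 with no change. These data were drawn with the fit's own spread and levels, so they cannot test the trend on level.

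The genes and lists were chosen with earlier results of these data known. Values in every array are given for genes past the threshold, the 5 of lowest p beyond them and the 5 of smallest difference, and for Myh3, Trdn, Fbp2, Fabp3, Lep and a second Ckm probe set, which were added after their values were seen, as was Myoz2. From each other list up to 4 genes past the threshold, or the 2 of smallest p, are named; other members of these lists were named after their values were seen. Alternatives changed the scaling, offset, level filter, probe set, threshold, variance model or array weights, added the replicate numbers, or left out an array. Promoters are from RefSeq's table. Tables used Python 3.11.15 and pandas 2.3.3.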

Additional observations from a re-analysis of the deposited data

How the results depend on the processing

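Genes lower among the 45 numbered 3 with the fit reported, with median centring, offsets of 200 or 1000 steps, a level filter, the mean over probe sets, the probe set of highest mean log2 ratio, robust eBayes, array weights, a threshold of 0.10, and, chosen after seeing the data, the NoDox level or quantile-normalized signals. They numbered 1 with quantile-normalized log2 ratios and 0 with no trend or with the trend on the mean log2 ratio (6 and 4 at an unadjusted limma p under 0.05), and 2 to 4 with single arrays left out. The median difference of the 45 genes stayed negative in every alternative run, and ranged between -0.48 and -0.21 with single arrays left out. Replicate numbers did not pair the arrays (correlations of deviations 0.0125 and 0.0172). With the replicate block 8 of the 45 genes were lower (Actn2, Casq1, Ckmt2, Mybpc1, Myh2, Myh3, Myh4 and Pvalb), 8 of their probe sets and 456 genes of the table. Dox replicate 3 has no NoDox array of its number, so in this fit it did not enter the difference. The median of the 45 genes was -0.393, the same as without Dox replicate 3.

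Among all genes 249 were higher and 213 lower. The counts were 58 and 12 with quantile-normalized log2 ratios, 451 and 499 with array weights and 454 and 487 at the threshold of 0.10. They were 6 and 0 with no trend and 0 and 0 with the trend on the mean log2 ratio. At an unadjusted limma p under 0.05 in either direction, no trend gave 2420 genes and the trend on the mean log2 ratio 2367. Median centring gave 293 and 146, and quantile-normalized signals 363 and 179. The NoDox level gave 139 higher and the probe set of highest mean log2 ratio 123 lower. With single arrays left out 47 to 375 genes were higher and 9 to 472 lower, with the fewest without NoDox replicate 1 (47 and 9), NoDox replicate 2 (55 and 12) and Dox replicate 3 (122 and 47), and the most without Dox replicate 2. The slow-fibre list had 3 to 6 lower, with 3 without each NoDox array or Dox replicate 3. That list had 3 lower with quantile-normalized log2 ratios and 0 with no trend or the trend on the mean log2 ratio. Probe sets of the 45 genes lower numbered 1, 0 and 0 under these, and 0 to 6 with single arrays left out, the fewest without NoDox replicate 1 and then NoDox replicate 2.

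Signs turned for some genes that had not passed. With quantile-normalized log2 ratios Myl1, Mybpc2 and Cacng1 had 0.0087, 0.049 and 0.0533. With quantile-normalized signals Acta1, Ckm, Myl1, Mybpc2, Tnnc2, Tnni2, Cacng1 and Mb had 0.13, 0.049, 0.13, 0.048, 0.0702, 0.018, 0.126 and 0.061. With median centring Acta1, Myl1, Mybpc2 and Cacng1 had 0.0024, 0.017, 0.064 and 0.071, and with array weights Mybpc2 and Cacng1 had 0.052 and 0.028. The mean over probe sets gave Myh1 0.20 and Sln 0.084, and the probe set of highest mean log2 ratio gave Myh1 0.85, Tnni2 0.41, Ryr1 0.030 and Ttn 0.36. The cause of these changes was not tested.
With single arrays left out Acta1 ranged between -0.25 and 0.094, Myl1 between -0.22 and 0.092, Mybpc2 between -0.12 and 0.16, Tnnc2 between -0.27 and 0.016, Cacng1 between -0.082 and 0.087 and Mb between -0.26 and 0.0047. Myh4 and Pvalb passed with each array left out, at adjusted p up to 0.0324 and 0.0486, and Ckmt2 without each Dox array but not without NoDox replicate 1 (0.0769) or NoDox replicate 2 (0.0623).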

Other observations

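Among genes past the threshold, those with the pattern over the 5 arrays most like Myh4, by Euclidean distance of log2 ratios, were Tnnc1 (1.15), 1810064F22Rik (1.19), Rps6ka6 (1.58), Fabp3 (1.79) and Lyg1 (1.88). Fabp3, the fatty acid binding protein of heart and muscle, had ratios of 0.235, 0.272 and 0.195 in Dox arrays, against 1.08 and 0.918 in NoDox arrays. It fell by 2.11 on the log2 scale (limma adjusted p = 0.000411). Rps6ka6, a ribosomal S6 kinase, fell by 2.71.

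The 2 NoDox arrays differed from each other over the 45 genes, with NoDox replicate 1 below NoDox replicate 2 in 34 and above it in 11. Their median ratios were 0.965 and 1.035 over the 45 genes, against 0.9962 and 1.004 over all genes. The same count over all genes was not made. Myh4, Pvalb and Ckmt2 were among the 11 with NoDox replicate 1 above NoDox replicate 2.

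Of 8 adipocyte markers 0 passed (3 lower at an unadjusted limma p under 0.05, 37.5% against 10.4% of all genes, median difference -0.32). Lep, the hormone leptin, had ratios of 0.0546, 0.0339 and 0.156 in Dox arrays, against 1.13 and 0.867 in NoDox arrays (log2 difference -3.91, limma adjusted p = 0.0582). Lpl, lipoprotein lipase, had a difference of -0.61. Of 10 nerve and glia markers 0 passed and 0 were lower at an unadjusted p under 0.05 (median 0.08). Slc18a3, the vesicular acetylcholine transporter, had a difference of 1.65 and Sox10 one of 0.33.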
